A study of Homo sapiens with 2 samples.

Results

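Described here are 7 of the 33694 genes listed in both count matrices, chosen by name for their known parts in neural crest and enteric nervous system development: the receptor tyrosine kinase RET, its co-receptors GFRA1 and GFRA2, the endothelin receptors EDNRA and EDNRB, and the transcription factors PHOX2A and HAND2. Their RNA was followed through 17 classes of cells in 2 droplet-based 3′ single-cell libraries. Both came from H9 cells, which are human embryonic stem cells of an established line. The day 10 library came from adherent cultures on Geltrex, at the stage when enteric neural crest cells (ENCCs) are induced with retinoic acid in the medium. The day 15 library came from free-floating crestospheres, made by detaching the monolayer on day 12 and keeping the cells in medium with FGF2 and an activator of the WNT pathway. No further treatment and no genetic change was labelled in either group, and both rest on this 1 cell line. Each library pooled 2 biological repeats that the deposited tables do not separate, so each stage was 1 sample (n = 1) without a replicate check. Stage, culture format, medium, depth and library cannot be told apart.

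In the embryo, crest cells enter the foregut and spread along the bowel to form the neurons and glia of the enteric nervous system. GDNF, made by the gut wall, binds GFRA1, and the pair activates RET on the crest cell. GFRA2 plays the same part for the ligand neurturin. Endothelin-3 acts through EDNRB and keeps crest cells as migrating progenitors, whereas EDNRA answers mainly to endothelin-1 and is best known from the crest of the jaws and the outflow tract of the heart. PHOX2A directs autonomic neuron formation, and HAND2 acts later in enteric neurons. Loss of RET or EDNRB function is a known cause of Hirschsprung disease, in which the end of the bowel lacks ganglia.

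The day 10 library held 9627 cells (7295 kept by the authors' quality limits) and 70488169 unique molecular identifiers (UMIs, each a counted RNA molecule). The day 15 library held 6320 cells (5336 kept) and 84976253 UMIs, with a median of 11770.5 UMIs per cell against 6713. Cell types and ENCC subclusters are the authors' annotation, which was made from the same expression values, so every contrast between classes of a library is a description. At day 10 the classes were ENCC 1 to ENCC 4, ENCCs outside these subclusters, cranial placode (CP), neuro-epithelial progenitors (NEP) and non-neural ectoderm (NNE). At day 15 they were ENCC 1′ to ENCC 4′, ENCCs outside these, CP1, CP2, NEP and mesenchymal cells (Mes). Levels are counts of UMIs summed over a class per 1000000 UMIs of that class (CPM), with exact 95% Poisson intervals in brackets. These intervals, those of ratios and those of shares cover counting error only.

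The labels were checked against marker lists. The ENCC markers SOX10, FOXD3, ERBB3 and S100B summed to between 159 and 555 CPM in the 8 numbered ENCC subclusters, with 0 of the 4 at or under 3 UMIs. Some classes went against their name. The day 15 cells labelled NEP had 281 CPM of the 5 NEP markers and 926 CPM of the 5 NNE markers, and CP2 had 488 CPM of the 7 placode markers and 4582 CPM of 6 neuronal genes. CP1 too had more of these neuronal genes, at 1960 CPM, than of the placode markers, at 1504 CPM. Day 10 NEP also had 1298 CPM of NNE markers beside 1416 CPM of its own. The 256 day 10 ENCCs outside the subclusters had 96.9 CPM of the ENCC markers against 1125 CPM of NEP markers, and the 27 of day 15 had 238 CPM against 609 CPM of the neuronal genes. In total 102 cell barcodes occurred in both libraries, which was 1.06% of day 10 and 1.61% of day 15 cells.

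All 7 genes are protein-coding in the GENCODE 29 annotation of GRCh38. EDNRA (chromosome 4, 147480917 to 147544954, plus strand) and HAND2 (chromosome 4, 173524969 to 173530229, minus strand) share a chromosome, as do RET (chromosome 10, 43077027 to 43130351, plus strand) and GFRA1 (chromosome 10, 116056925 to 116273467, minus strand). EDNRB lies on chromosome 13 (77895481 to 77975529, minus strand) and PHOX2A on chromosome 11 (72239077 to 72245664, minus strand). The antisense gene HAND2-AS1 overlaps HAND2 by 2960 bases, and whether counting used strand was not stated.

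Of the endothelin receptors, EDNRA differed most between the stages and EDNRB among the day 15 subclusters, so bases upstream of a start of each gene are given, 5′ to 3′ on the gene's strand, from RefSeq promoter windows of GRCh38.p14 and without any base that GENCODE places in an exon of the gene. The EDNRB window, the more upstream of 2 in the RefSeq table, belongs to a start inside the GENCODE span of the gene, downstream of its first start there. They cover chr4:147480847-147480916 (70 bases) and chr13:77919769-77919932 (164 bases). Capitals mark the E-box, CANNTG, a motif read by basic helix-loop-helix factors.
EDNRA upstream: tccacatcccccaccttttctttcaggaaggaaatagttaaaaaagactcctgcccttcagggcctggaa
EDNRB upstream: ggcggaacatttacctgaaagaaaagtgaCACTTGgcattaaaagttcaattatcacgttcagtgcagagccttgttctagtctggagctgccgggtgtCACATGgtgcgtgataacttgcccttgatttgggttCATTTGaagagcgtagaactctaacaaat
The EDNRB window held 3 E-boxes. An E-box was present in 47.9% of 35116 promoters over the same 164 positions and in 24.4% over the 70 positions matching EDNRA. The SOX core ACAAAG and the nuclear receptor motif AGGTCA, searched on both strands as well, were in neither window, against 9.38% and 7.81% of promoters over 164 positions and 4.13% and 3.28% over 70 positions. These are matches of letters and not measured binding sites.

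EDNRA had the most UMIs of the members in day 10 ENCCs and was nearly gone from day 15 ENCCs. Its level was 66.0 CPM (63.4 to 68.7, 2439 UMIs) in day 10 ENCCs and 6.11 CPM (5.47 to 6.79, 341 UMIs) in day 15 ENCCs, a ratio of 0.0925 (0.0823 to 0.104), or 10.8-fold lower. A gene counts as differing here when its CPM ratio was 2 or more and the sums held at least 10 UMIs, and 27.9% of 16527 genes differed between ENCCs of the stages. For EDNRA the difference ran through all subclusters. At day 10 ENCC 2 had 70.5 CPM, ENCC 1 had 70.4 CPM, ENCC 3 had 60.1 CPM and ENCC 4 had 47.1 CPM, and the intervals of neighbours in this order overlapped. At day 15 ENCC 1′ had 6.79 CPM, ENCC 3′ had 6.22 CPM, ENCC 2′ had 5.81 CPM and ENCC 4′ had 3.30 CPM, again with overlapping intervals. Outside the crest, day 10 NNE had 42.8 CPM, CP had 20.3 CPM and NEP had 12.3 CPM. The level of each of the 8 day 10 classes was thus above that of each of the 9 day 15 classes. The intervals of the day 10 NEP and of ENCC 1′ did not overlap, though those of small day 15 classes such as Mes (5.35 CPM, 1.10 to 15.6, 3 UMIs) reached into the range of day 10 NEP.

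EDNRA is among the genes by which the study annotates mesenchymal cells, and the mesenchymal list as a sum was also lower in day 15 ENCCs. The 6 Mes markers (TWIST1, MSX1, PDGFRA, PDGFRB, COL1A1, COL3A1) summed to between 41.4 and 90.5 CPM in the numbered ENCC subclusters of day 10 and to between 4.27 and 15.8 CPM in those of day 15. Of the 6, MSX1, COL1A1 and COL3A1 were over 2-fold lower at day 15, and TWIST1 was higher, at 14 UMIs against 1. Most of the day 10 sum was COL1A1, a chain of type I collagen, at 68.2 CPM in day 10 ENCCs against 2.24 CPM in day 15 ENCCs. Within a day the list and EDNRA did not share an order. Among the numbered subclusters of day 10, ENCC 4 had the highest list sum (90.5 CPM) and the lowest EDNRA (47.1 CPM). At day 15 the same held for ENCC 4′ (15.8 and 3.30 CPM, with 5 EDNRA UMIs). The day 15 Mes class had 342 CPM of the list and 5.35 CPM of EDNRA (3 UMIs). The part of these genes in the EDNRA difference was not tested.

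EDNRB went the other way and was spread unevenly over the day 15 subclusters. Day 10 ENCCs had 36.4 CPM (34.5 to 38.4, 1346 UMIs) and day 15 ENCCs had 53.1 CPM (51.2 to 55.1, 2966 UMIs), with a ratio of 1.46 (1.37 to 1.56). ENCC 4′ had 109 CPM (92.9 to 127) and ENCC 3′ had 102 CPM (95.2 to 109), with overlapping intervals. ENCC 2′ had 46.1 CPM (43.5 to 48.7) and ENCC 1′ had 38.0 CPM (35.3 to 40.9), both far below. ENCC 3′ and ENCC 4′ made up 17.5% of day 15 ENCCs and held 33.7% of their EDNRB UMIs. Without them the day 15 level was 42.6 CPM (40.7 to 44.5) and the ratio to day 10 fell to 1.17 (1.09 to 1.25). At day 10 ENCC 1 had 40.5 CPM, ENCC 2 had 36.9 CPM and ENCC 3 had 32.5 CPM, with each neighbouring pair overlapping. ENCC 4 stood lower, at 12.3 CPM (7.17 to 19.7).

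Outside the ENCCs, EDNRB was concentrated in day 10 NNE, at 54.7 CPM (44.6 to 66.5, 101 UMIs), above the level of day 10 ENCCs as a whole. CP had 5.58 CPM and NEP had 6.55 CPM at day 10. At day 15 CP1 had 2.93 CPM (7 UMIs), Mes had 5.35 CPM (3 UMIs), the cells labelled NEP had 6.97 CPM (8 UMIs) and CP2 had 0 UMIs, which with a floor of 3 UMIs allows up to 7.46 CPM. Away from the crest, EDNRB was thus low in each day 15 class.

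Genes of the melanocyte list moved with EDNRB across the day 15 subclusters. MITF, the main transcription factor of melanocytes, was at 83.7 CPM in ENCC 3′ and 116 CPM in ENCC 4′, against 45.2 CPM in ENCC 1′ and 25.3 CPM in ENCC 2′. PMEL, a protein of the pigment organelle that is also seen outside melanocytes, was at 551 CPM in ENCC 3′, 146 CPM in ENCC 4′, 94.6 CPM in ENCC 2′ and 45.9 CPM in ENCC 1′. The third gene of the list, TYRP1, an enzyme of pigment synthesis, had 1 UMI in ENCC 3′ and 0 in the other numbered subclusters. Summed, the list ran from 91.2 to 635 CPM in the day 15 subclusters, with 1 of 3 genes at or under 3 UMIs in each. PMEL was also at 307 CPM in day 10 NEP, where EDNRB was low. The part of these cells or genes in the EDNRB pattern was not tested.

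**Figure D1:**
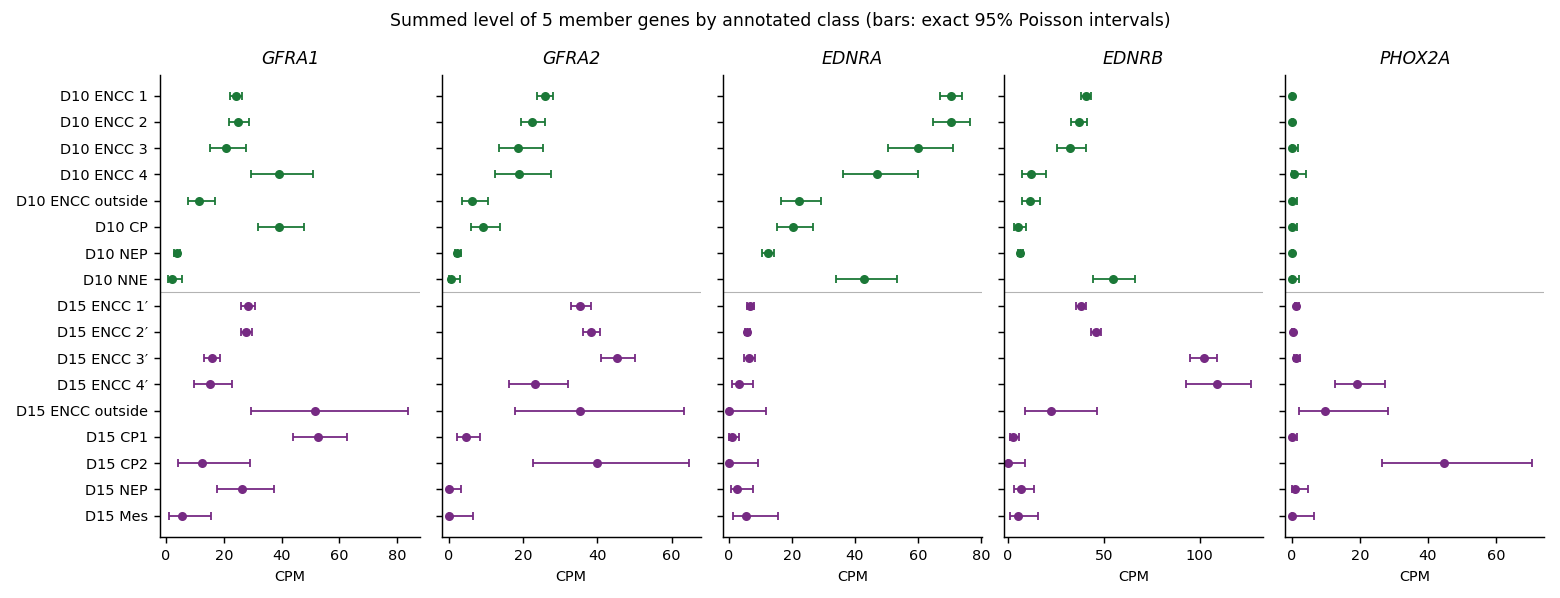
Summed level (CPM, x axis) of 5 members in the 17 annotated classes (rows, day 10 above the line in green and day 15 below it in purple), with exact 95% Poisson intervals as bars. EDNRA is above 12 CPM in each day 10 class and below 7 CPM in each day 15 class, EDNRB reaches 102 and 109 CPM in ENCC 3′ and ENCC 4′, and PHOX2A stands out in CP2 and ENCC 4′.

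The balance of the endothelin receptors thus turned over between the libraries. EDNRB made up 35.6% (34.0 to 37.1, exact binomial interval) of the UMIs of both receptors in day 10 ENCCs and 89.7% (88.6 to 90.7) in day 15 ENCCs. In the day 15 subclusters it was 84.8% in ENCC 1′, 88.8% in ENCC 2′, 94.3% in ENCC 3′ and 97.1% in ENCC 4′. At day 10 it was between 20.7% and 36.5% in ENCC 1 to ENCC 4, and in day 10 NNE it was 56.1% (48.5 to 63.5). The cells that the quality limits removed gave like shares, 35.1% at day 10 and 87.9% at day 15.

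The endothelin ligands were all but missing from the ENCCs. Of the 5 genes for ligands and their processing enzymes, 4 had enough UMIs in the stage contrast of ENCCs, where 27.9% of all genes differed. Of the 4, 0 were 2-fold higher and 2 were 2-fold lower at day 15. Those were EDN1 (27 UMIs at day 10, 23 of them in ENCCs outside the subclusters, and 3 at day 15) and EDN3 (10 and 1 UMIs). At day 10 EDN1 was instead in NEP cells, at 18.7 CPM (263 UMIs), where EDN3 was at 6.48 CPM (91 UMIs). Day 10 NNE, the class outside the crest with the most EDNRB, was also 2-fold or more above ENCCs for EDN1, EDN3 and ECE2. At day 15 EDN3 was found in Mes, at 25.0 CPM (14 UMIs in 47 cells), and EDN1 was at 0 UMIs there. ECE1, which cleaves the ligand precursors, was at 3.33 CPM in day 10 and 6.39 CPM in day 15 ENCCs, and its relative ECE2 was at 6.06 and 3.12 CPM, both short of the 2-fold rule.

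The co-receptors of RET were clearly present, although RET was not. GFRA1 was at 24.0 CPM (22.5 to 25.6, 887 UMIs) in day 10 ENCCs and 26.1 CPM (24.7 to 27.4, 1456 UMIs) in day 15 ENCCs, a ratio of 1.09 with an interval, 0.998 to 1.18, that includes 1. GFRA2 was at 23.2 CPM (21.6 to 24.8, 856 UMIs) and 38.0 CPM (36.4 to 39.6, 2121 UMIs), a ratio of 1.64 (1.51 to 1.78). GFRA2 was thus somewhat higher at day 15, below the 2-fold rule, while GFRA1 was nearly level. GFRA1 took 50.9% (48.5 to 53.3) of the UMIs of both in day 10 ENCCs and 40.7% (39.1 to 42.3) in day 15 ENCCs.

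GFRA1 was not a gene of the crest alone. Its highest level was in day 15 CP1, at 52.8 CPM (43.9 to 62.8), followed by the 27 day 15 ENCCs outside the subclusters at 51.5 CPM (29.5 to 83.7), and by ENCC 4 and CP of day 10, each at 39.1 CPM. The intervals of these 4 overlapped from neighbour to neighbour. ENCC 1′ had 28.4 CPM and ENCC 2′ had 27.8 CPM, against 15.9 CPM (13.3 to 18.8) in ENCC 3′ and 15.2 CPM (9.62 to 22.8) in ENCC 4′, so the day 15 subclusters richest in EDNRB were the poorest in GFRA1. At day 10 ENCC 1 had 24.3 CPM, ENCC 2 had 25.0 CPM and ENCC 3 had 20.9 CPM. The cells labelled NEP had 3.63 CPM at day 10 and 26.2 CPM at day 15, but their markers differed as described above, so these values stand side by side without a comparison. The placode list was high in the classes highest in GFRA1: its 7 genes summed to 1504 CPM in CP1, 867 CPM in day 10 CP, 258 CPM in the day 15 ENCCs outside the subclusters and 146 CPM in ENCC 4, against 12.1 to 22.3 CPM in the other numbered ENCC subclusters. CP2 and the day 15 cells labelled NEP did not follow this, with 488 CPM of the list at 12.4 CPM of GFRA1 and 11.3 CPM of the list at 26.2 CPM of GFRA1. The part of placode cells in the GFRA1 pattern was not tested.

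GFRA2 kept closer to the crest. ENCC 3′ had 45.4 CPM (40.9 to 50.3), ENCC 2′ had 38.4 CPM (36.1 to 40.8), ENCC 1′ had 35.4 CPM (32.8 to 38.2) and ENCC 4′ had 23.1 CPM (16.1 to 32.1). CP2 was the one class outside the ENCCs within that range, at 39.8 CPM (22.8 to 64.6, 16 UMIs in 11 of 43 cells). Day 10 subclusters lay between 18.7 CPM in ENCC 3 and 25.8 CPM in ENCC 1. CP1 had 4.61 CPM, day 10 NEP had 2.21 CPM, day 10 NNE had 1 UMI, and the day 15 Mes and NEP classes had 0 UMIs, which allows up to 5.35 and 2.62 CPM. The mix of co-receptors therefore differed between classes, and GFRA1 took 92.0% (86.1 to 95.9) of the UMIs of both in CP1, 81.0% (72.9 to 87.6) in day 10 CP, 67.5% (56.1 to 77.6) in ENCC 4 and 25.9% (22.1 to 30.0) in ENCC 3′.

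**Figure D2:**
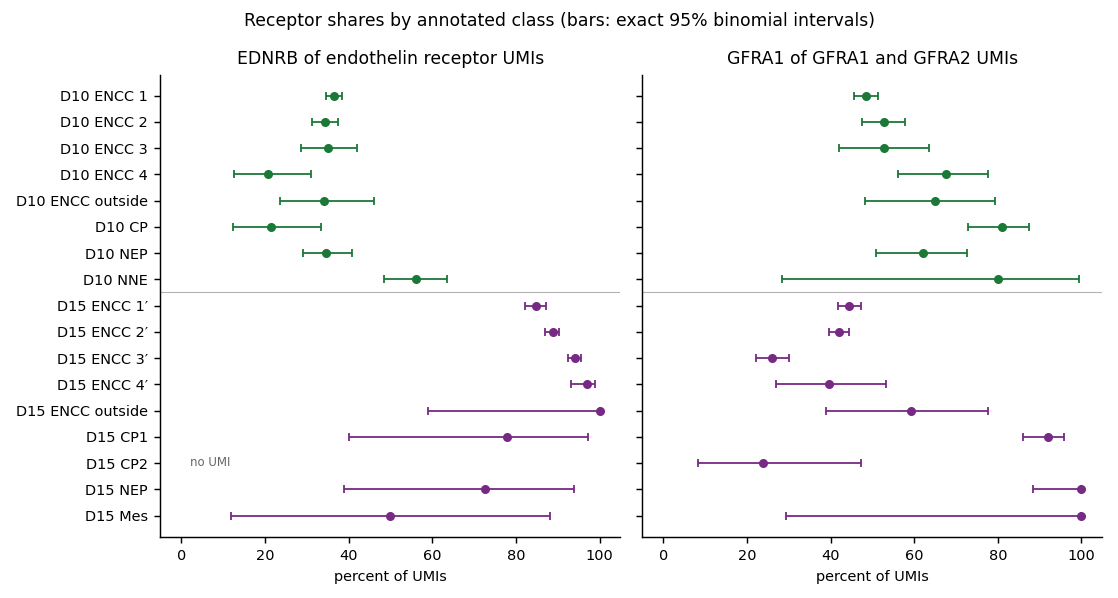
Percent of endothelin receptor UMIs that were EDNRB (left) and percent of GFRA1 and GFRA2 UMIs that were GFRA1 (right) in each annotated class, with exact 95% binomial intervals, day 10 in green and day 15 in purple. The EDNRB share is 20.7% to 36.5% in ENCC 1 to ENCC 4 and 84.8% to 97.1% in ENCC 1′ to ENCC 4′.

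RET itself was at the limit of detection. The day 10 library held 1 RET UMI, in an NEP cell, and the day 15 library held 11 in 9 of 6320 cells. Of these cells, 2 were CP2, 2 were ENCC 1′, 1 was ENCC 2′ and 4 had been removed by the quality limits. RET was at or under 3 UMIs in 17 of 17 classes. In 4921 day 10 ENCCs it had 0 UMIs, which allows up to 0.0812 CPM, and in 4934 day 15 ENCCs it had 3 UMIs, or 0.0537 CPM (0.0111 to 0.157), so no difference between stages was detectable in them at this depth. The whole day 10 library gave 0.0142 CPM and the whole day 15 library 0.129 CPM (0.0646 to 0.232), with a ratio of 9.12 that the single day 10 UMI leaves anywhere between 1.33 and 393.

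The day 15 cells with RET outside the ENCCs carried neuronal RNA: both CP2 cells and 4 of 4 removed cells had at least 3 of 6 neuronal genes (ELAVL3, ELAVL4, STMN2, TUBB3, PRPH, SYP), and 4 of these 6 also held PHOX2A. None of the 3 ENCCs with RET, each with 1 UMI, had 3 neuronal genes or PHOX2A. Among all 9 the share with PHOX2A was 44.4% (13.7 to 78.8), against 1.52% of all day 15 cells, and 524 of 6320 day 15 cells had 3 or more of the neuronal genes. Those classes were rich in such cells, with 39 of 43 CP2 cells and 330 of 984 removed cells, against 3 of 1665 ENCC 1′ cells. CP1 was rich in them too, with 144 of 208 cells, yet it had 0 RET UMIs. The 4 removed cells were deep, with 29665 to 130132 UMIs. This description was chosen after the values were seen, and neither depth nor doublets were tested as a source of the joint detection.

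Other genes of the GDNF pathway were described by fixed lists. Over all genes, 27.9% differed between ENCCs of the stages in either direction. Of the 8 other ligands and receptors of the family, 5 had enough UMIs in ENCCs, 1 was 2-fold higher at day 15 and 1 was 2-fold lower. The lower one was GFRA3, the co-receptor for artemin, which fell from 17.3 to 5.05 CPM. The higher one was NRTN, which encodes neurturin, at 5 UMIs and 42 UMIs. GDNF was scarce, with 20 and 59 ENCC UMIs (0.541 and 1.06 CPM), and NCAM1, which can also bind GFRA1, was at 22.0 and 25.2 CPM. Of 14 adaptors and feedback inhibitors that act downstream of RET and of other receptor tyrosine kinases, 13 had enough UMIs. Of the 13, 5 were higher and 1 was lower at day 15, against the same 27.9% of all genes. DUSP6, a phosphatase that switches off ERK, rose from 8.90 to 31.1 CPM, the Sprouty inhibitors SPRY2 from 4.93 to 11.5 CPM, SPRY4 from 0.189 to 1.81 CPM and SPRY1 from 0.812 to 1.72 CPM, and the adaptor GRB10 from 4.68 to 12.9 CPM. The adaptor DOK5 fell from 19.1 to 4.51 CPM. The other 7 adaptors tested, GRB2 and SHC1 among them, were within 2-fold. SPRY1, SPRY2, SPRY4 and DUSP6 were also 2-fold or more higher at day 15 in the cells labelled NEP, whose markers differed between the stages. Within day 15, SPRY1, SPRY2 and SPRY4 were 2-fold or more lower in ENCCs than in the other kept cells, as were 26.8% of all genes.

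PHOX2A was nearly absent at day 10 and had its highest levels in small day 15 classes. Cells with a PHOX2A UMI were also found in ENCC 1′, ENCC 2′ and ENCC 3′ (24, 8 and 10 cells), beside 26 in ENCC 4′ and 5 in CP2. PHOX2A had 1 UMI at day 10, in ENCC 4, and 118 UMIs in 96 cells at day 15. In ENCCs the UMIs rose from 1 to 76, with a ratio of CPM of 50.3 and a counting interval of 8.76 to 2012 that shows how little the single day 10 UMI fixes it. CP2 had 44.8 CPM (26.5 to 70.8, 18 UMIs in 5 of 43 cells) and ENCC 4′ had 19.1 CPM (12.8 to 27.5, 29 UMIs in 26 of 138 cells), with overlapping intervals. In CP2 a lone cell held 10 of the 18 UMIs, and without it the level was 20.5 CPM (8.85 to 40.4). ENCC 1′ had 1.32 CPM (25 UMIs), ENCC 3′ had 1.22 CPM (10 UMIs) and ENCC 2′ had 0.335 CPM (9 UMIs). CP1, which holds most cells labelled placode at day 15, had 0 PHOX2A UMIs in 208 cells.

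The PHOX2A cells of ENCC 4′ and of CP2 differed in their neuronal RNA. In ENCC 4′, 0 of 26 PHOX2A cells had 3 or more of the 6 neuronal genes, which summed to 16.8 CPM there and to 14.0 CPM in the other 112 cells of the subcluster. In CP2, 5 of 5 PHOX2A cells had them, with a sum of 4921 CPM, and so did 34 of the other 38 cells. SOX10, the crest factor, was at 47.0 CPM in the PHOX2A cells of ENCC 4′ and at 0 UMIs in those of CP2.

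HAND2 was also close to absent. It had 18 UMIs in 15 cells at day 10 and 0 at day 15. With the floor of 3 UMIs put in for day 15, HAND2 was 7.23-fold lower, a ratio of 0.138. The exact interval, taken from the observed 18 and 0 UMIs without the floor, reached up to a ratio of 0.189. In kept cells alone (10 and 0 UMIs) HAND2 was 3.63-fold lower with the same floor, a ratio of 0.275. The interval from the observed UMIs there reached up to 0.409. Of the 18, NNE held 5 (2.71 CPM, 0.879 to 6.32), NEP held 4, ENCCs outside the subclusters held 1 and removed cells held 8. In the 4665 ENCCs of the numbered day 10 subclusters it was at 0 UMIs. HAND2-AS1 had 8 UMIs at day 10 and 10 at day 15, so its few UMIs were found at both stages, unlike those of HAND2.

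Among 10 further transcription factors of enteric and autonomic development, 9 had enough UMIs in ENCCs. Of the 9, 3 were 2-fold higher at day 15 and 3 were 2-fold lower, against 27.9% of all genes in either direction. TLX2 fell from 7.42 to 0.143 CPM, GATA3 from 7.50 to 0.107 CPM and MEIS1 from 6.39 to 1.86 CPM. INSM1 (0.135 to 0.985 CPM), GATA2 (0.244 to 0.770 CPM) and ISL1 (1.95 to 4.19 CPM) were higher. SOX10 (120 and 103 CPM), ZEB2 (145 and 129 CPM) and TBX3 (4.38 and 3.33 CPM) stayed within 2-fold. Of 4 transmitter genes, DBH had 2 and 17 ENCC UMIs, 14 of the latter in ENCCs outside the subclusters, and TH had 12 and 1.

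Counted as a list, 2 of the 5 members with enough UMIs differed between ENCCs of the stages, PHOX2A upward and EDNRA downward, against 27.9% of all genes. With a pseudocount of 1 CPM the same 2 members still differed, against 11.1% of all genes. Over the whole libraries 5 of 7 did, with RET, GFRA2 and PHOX2A higher and EDNRA and HAND2 lower at day 15, against 32.9% of 18569 genes. Whole libraries include the removed cells, and in kept cells alone 4 of 6 did, against 32.1% of 17784 genes, with RET at 5 and 1 UMIs too scarce to count. In ENCCs the median log2 ratio was 0.54 over the 5 members and −0.16 over all genes, so relative to the median gene GFRA1 was at 0.28, EDNRB at 0.70, GFRA2 at 0.87 and EDNRA at −3.28.

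Within day 10, ENCCs were over 2-fold above the other kept cells for 4 of 5 members, against 4.17% of 16297 genes, and below them for HAND2, against 23.7%. The HAND2 call rested on 1 against 9 UMIs, the least the rule admits, and fell short of 2-fold with a pseudocount of 1 CPM. GFRA2 had a ratio of 7.75 (5.90 to 10.4), EDNRA of 4.01 (3.56 to 4.53), EDNRB of 3.24 (2.79 to 3.77) and GFRA1 of 2.89 (2.43 to 3.45). Within day 15, 3 of 5 members were above, against 4.92% of 15704 genes, and PHOX2A was below, against 26.8%. EDNRB had a ratio of 13.3 (8.38 to 22.4), GFRA2 of 6.33 (4.34 to 9.62) and EDNRA of 3.43 (1.72 to 8.02). GFRA1 had 0.715 (0.608 to 0.846) and PHOX2A 0.322 (0.193 to 0.564). The PHOX2A call turned on CP2, which held 18 of the 19 PHOX2A UMIs in those other cells. Without CP2 the ratio was 5.57 (0.971 to 223), in the opposite direction, and without the CP2 cell of 10 UMIs it was 0.678 (0.339 to 1.54) and no longer past 2-fold.

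**Figure D3:**
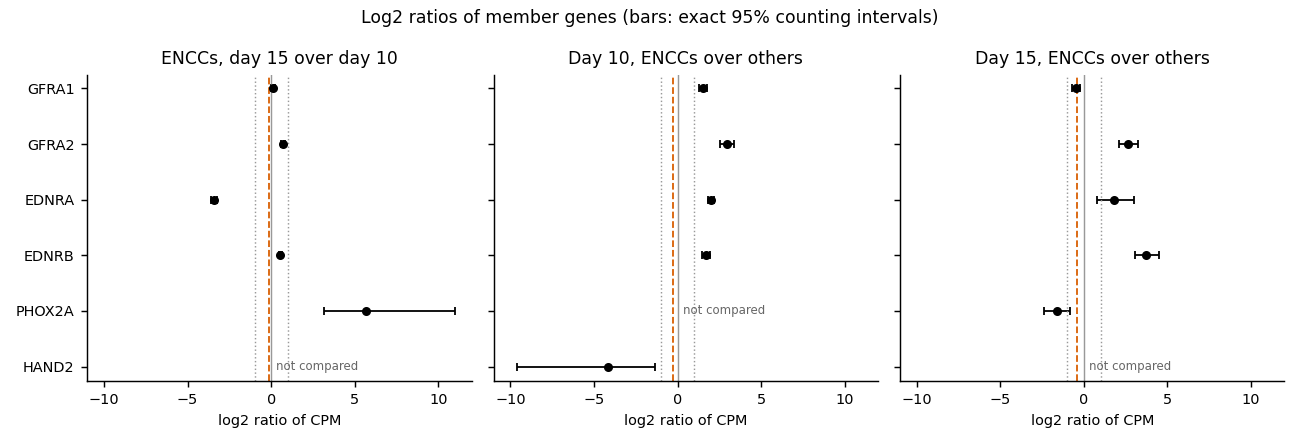
Log2 ratio of CPM (x axis) for ENCCs at day 15 over day 10 and for ENCCs over the other kept cells of each day, with exact 95% counting intervals, dotted lines at 2-fold and a dashed line at the median of all genes. EDNRA lies at −3.43 and PHOX2A at 5.65 in the left panel, and GFRA1 is right of 0 at day 10 and left of it at day 15.

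Between the day 15 subclusters, EDNRB and PHOX2A were the 2 of 5 members over 2-fold higher in ENCC 3′ than in ENCC 2′, against 4.10% of 14012 genes. They were also the 2 of 5 over 2-fold higher in ENCC 4′ than in ENCC 2′, against 14.0% of 13615 genes. EDNRB ratios were 2.22 (2.03 to 2.42) and 2.36, and PHOX2A ratios were 3.64 (1.33 to 10.1) and 57.0 (26.3 to 137). For ENCC 3′ the PHOX2A ratio rested on 10 against 9 UMIs, with the subcluster lowest in PHOX2A as reference. ENCC 3′, at 1.22 CPM (0.585 to 2.24), did not stand above ENCC 1′, at 1.32 CPM (0.852 to 1.94). Between ENCC 4′ and ENCC 3′ EDNRB did not separate (1.07, 0.897 to 1.26), whereas PHOX2A was 15.7 times higher (7.43 to 36.1), the 1 of 5 members past 2-fold against 6.53% of 11819 genes. At day 10 the 1 of 4 members over 2-fold lower in ENCC 4 than in ENCC 1 was EDNRB (0.304, 0.176 to 0.489), against 5.47% of 13481 genes.

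The members were also read by the deposited cell cycle phase of ENCCs. EDNRB was higher in G1 than in S or G2M at both stages, at 44.6, 34.8 and 29.4 CPM at day 10 and 63.2, 48.9 and 47.8 CPM at day 15. At day 10 this held within ENCC 1, with 54.8 CPM (49.6 to 60.4) in G1 and 31.6 CPM (27.8 to 35.9) in G2M. At day 15 the G1 level was above the S level within ENCC 3′, at 114 CPM (103 to 126) and 90.6 CPM (80.1 to 102), with an interval that overlapped that of G2M. No G1 excess was seen within ENCC 2′, at 46.6, 45.1 and 47.1 CPM, or within ENCC 1′, at 39.7, 39.9 and 32.8 CPM, and G1 cells made up 48.7% of ENCC 3′ and 86.2% of ENCC 4′ against 32.8% of ENCC 1′ and 28.6% of ENCC 2′. PHOX2A had 57 of its 76 ENCC UMIs in G1 cells, 26 of them in ENCC 4′. EDNRA had overlapping intervals across phases in all ENCCs of each stage. Within ENCC 1 its level was higher in G1, at 80.0 CPM (73.7 to 86.8), than in G2M, at 67.1 CPM (61.4 to 73.2). GFRA2 was likewise at 30.8 CPM (26.9 to 35.1) and 22.6 CPM (19.4 to 26.3). CPM is relative to the RNA counted in the same cells, whose amount per cell was not held equal across phases. In 1131 G1 and 826 G2M cells of ENCC 1, EDNRA had 584 and 507 UMIs and GFRA2 had 225 and 171. Per cell neither was higher in G1, whereas EDNRB, with 400 and 239 UMIs, was. GFRA1 in all day 15 ENCCs was lower in G1, at 22.3 CPM (20.2 to 24.7), than in G2M, at 28.4 CPM (25.7 to 31.3). Within each numbered day 15 subcluster its G1 and G2M intervals overlapped. The levels were 23.4 and 31.1 CPM in ENCC 1′, 25.3 and 29.2 CPM in ENCC 2′ and 11.8 and 44.4 CPM in ENCC 4′. In ENCC 3′ they ran the other way, at 18.0 and 12.2 CPM.

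**Figure D4:**
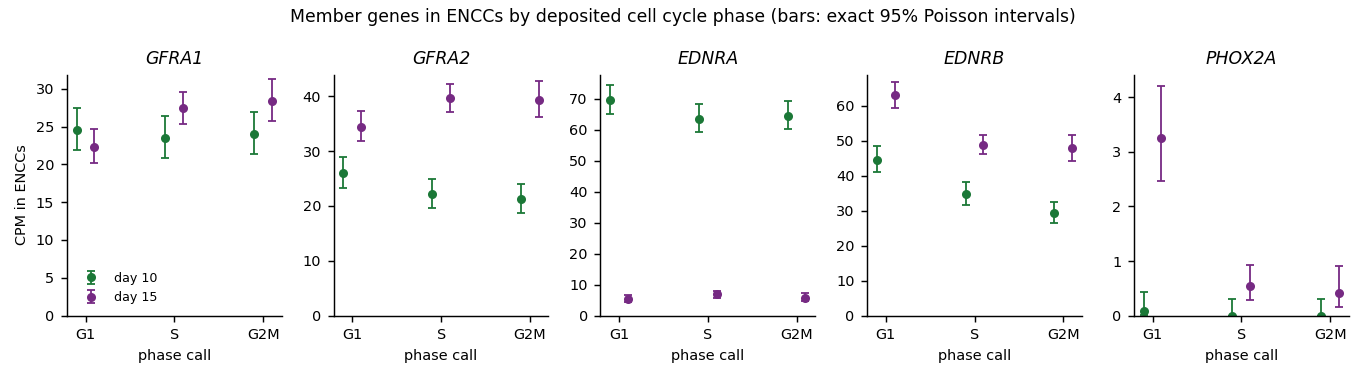
Level (CPM, y axis from 0) of 5 members in ENCCs by deposited phase call, day 10 in green and day 15 in purple, with exact 95% Poisson intervals. EDNRB is highest in G1 at both stages, and 57 of the 76 PHOX2A UMIs of day 15 are in G1.

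In single cells the receptors were seen in a minority of ENCCs. After each cell was thinned to 3000 UMIs, so that depth was equal, an EDNRA UMI was present in 18.3% (17.2 to 19.4) of day 10 and 1.72% (1.38 to 2.13) of day 15 ENCCs, against 35.9% and 6.59% before thinning, when the median depths were 7004 and 11082 UMIs. EDNRB was in 10.6% and 14.8% after thinning, and in 27.0% of ENCC 3′ and 26.1% of ENCC 4′. GFRA2 was in 7.01% and 10.6%, and GFRA1 in 6.55% and 7.36%, with 16.8% of CP1. For a class low in these genes, day 10 NEP gave 3.00% for EDNRA, 1.56% for EDNRB, 0.779% for GFRA2 and 0.723% for GFRA1 at a median depth of 7227 UMIs, and day 15 CP1 gave 0 of 208 for EDNRA and 0.962% for EDNRB and for GFRA2. The day 15 EDNRA share of ENCCs did not exceed the 1.92% (2 of 104) of day 15 cells labelled NEP, a class of few cells with an interval of 0.234 to 6.77%. It was above the 0.498% (0.0603 to 1.79) of all other kept cells, though the intervals overlapped, and this share alone gives no firm separation.

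Pairs of receptors were found in the same ENCCs about as often as in ENCCs at large. Of day 10 ENCCs with GFRA1, 17.9% (15.3 to 20.7) also had GFRA2, against 15.1% of all, and at day 15 it was 33.7% (31.0 to 36.4) against 33.2%. Of ENCCs with EDNRB, 38.3% (35.5 to 41.3) also had EDNRA at day 10, against 35.9%, and 6.11% (5.09 to 7.27) at day 15, against 6.59%. Of the 26 ENCC 4′ cells with PHOX2A, 57.7% (36.9 to 76.6) had EDNRB, against 59.4% of the subcluster, and 0 had RET. In each of these 5 cases the interval reached the share of all cells of the class, or overlapped its interval. The class includes the cells with the first gene, which draws the shares together, and cells were not thinned here, so depth was not held equal. Small excesses of joint detection could thus be missed.

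For each member with at least 30 UMIs, the 3 genes with the most similar profile over 16 classes of at least 40 cells were named by Pearson's r of log2(CPM + 1), a description over classes that share a library, and hence depth, within a day. For EDNRA they were DEPDC1B (0.95), PTRHD1 (0.95) and RPL15 (0.95). For EDNRB they were NUDT9 (0.93), FBXO7 (0.89) and ERBB3 (0.88), the last a crest and glial receptor on the ENCC marker list. For GFRA1 they were PTX3 (0.87), TRIM9 (0.82) and CCDC85B (0.80), for GFRA2 RASA3 (0.90), MMP16 (0.89) and CELF2 (0.89), and for PHOX2A, with 96 UMIs over these classes, HPS4 (0.88), ZNF627 (0.87) and TCP11L1 (0.87).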

How the data were processed

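The authors prepared 10x Genomics 3′ libraries, used kallisto and bustools to extract the matrices, and deposited raw UMI counts with no normalization, beside metadata on quality, phase, cell type and subcluster. A per-cell novelty score in the deposited metadata, computed by the authors from genes and UMIs, was not used. Per the labels, Cell Ranger, Seurat 4.0.4 and GRCh38 were named; the annotation behind the counts is not given in the sources used here. Cells failing the authors' limits on genes, UMIs and mitochondrial percent were marked as removed but kept in the deposited counts. Doublets were not removed beyond these limits.

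Counts were summed per class and scaled to CPM with Python 3.11.15 and numpy 2.4.6. With 1 library per stage, no test, SE or p-value was computed. Levels carry exact Poisson intervals, ratios exact conditional binomial intervals and shares Clopper-Pearson intervals (scipy 1.17.1), all at 95% and covering counting error only. Where no UMI was seen, up to 3 were allowed for. Genes with at least 10 UMIs over both sums were counted as differing at a CPM ratio of 2 or more. Cells were thinned to 3000 UMIs with a fixed seed, and shallower ones left out. TMM factors came from edgeR 4.0.16 and size factors from DESeq2 1.42.0 under R 4.3.3. The calling rule was tested on simulated data. Named genes were all members, listed pathway genes with at least 5 CPM in 1 class or 2-fold different between stages in ENCCs, and the 3 genes most alike in profile to each member. Members and lists were chosen with earlier results of these data known. Promoter windows came from RefSeq (6 of 7 members matched). Some genes of the marker and transcription factor lists are not reported here.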

Additional observations from a re-analysis of the deposited data

Results flagged for a closer look

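GFRA1 differed in direction between the stages when ENCCs were set against the other kept cells of the same library. The log2 ratio was 1.53 at day 10, where ENCCs were higher, and −0.48 at day 15, where they were lower, and the counting intervals of both left out 0. The difference was not tested, since each stage was 1 library. The other cells were not the same at the 2 stages: 1811 of the 2374 at day 10 were NEP, with 3.63 CPM of GFRA1, and 208 of the 402 at day 15 were CP1, with 52.8 CPM.

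GFRA1 was also high in cells that the quality limits removed at day 15, which are in no annotated class. It was at 42.2 CPM (39.7 to 44.8, 1039 UMIs in 984 cells) there, against 26.8 CPM (25.6 to 28.2) in the kept cells. Of the removed cells, 361 had at least 3 of the 7 placode genes, and these had 56.6 CPM (52.3 to 61.1) of GFRA1 against 29.5 CPM (26.6 to 32.5) in the other 623. Their median depth was 26695 UMIs against 20377, and the parts of depth and of placode cells in the level were not tested.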

How the results depend on the processing

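No paired analysis was possible because each stage was 1 library. Across 129 recomputed values 1 changed direction: without CP2, the log2 ratio of PHOX2A in day 15 ENCCs over other cells was 2.48, against −1.63 with it, and −0.56 without the CP2 cell with most PHOX2A UMIs. Without CP2, GFRA2 was at 3.82 in that contrast. TMM and DESeq2 scaling moved the median of all genes by 0.16 and gave, in this order, 0.28 and 0.28 for GFRA1, 0.87 and 0.87 for GFRA2 and 0.70 and 0.70 for EDNRB as log2 ratios of day 15 over day 10. Without ENCC 3′ and ENCC 4′, chosen after seeing the data as were leaving out CP2, that cell, removed cells and shared barcodes, EDNRB was at 0.23. A pseudocount of 1 CPM gave −3.24 for EDNRA and 1.20 for PHOX2A, and −0.54 for HAND2 in day 10 ENCCs over other cells, which ends its 2-fold call. In that contrast EDNRA was at 2.24 as a mean over cells, 2.20 in thinned cells and 2.25 without the 6% deepest cells, and GFRA2 was at 3.41 without those cells. Genes 2-fold different between stages numbered 4603, or 1836 with the pseudocount, and 46.1% of them were higher, 54.5% with TMM and 53.6% with the pseudocount.

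Shares of ENCCs with a UMI depend on depth. Thinned to 5000 UMIs they were, at day 10, 11.6% for GFRA1, 10.6% for GFRA2, 26.5% for EDNRA and 17.3% for EDNRB, and at day 15, 12.2%, 17.3%, 3.18%, 22.2% and, for PHOX2A, 0.608%. With at least 2 of 3000 UMIs they were 0.285%, 0.366%, 2.48% and 0.834% at day 10, and 0.405%, 0.770%, 0.0405%, 1.46% and 0% at day 15, in the same order.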

Other observations

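Cells removed by the quality limits, which are in no annotated class, held the receptors at both stages. At day 10 the 2332 removed cells had 36.3 CPM (33.3 to 39.5) of EDNRA and 19.6 CPM (17.4 to 22.0) of EDNRB, and at day 15 the 984 removed cells had 3.45 CPM (2.76 to 4.27) and 25.1 CPM (23.2 to 27.2). GFRA2 was at 8.05 CPM and 19.0 CPM in them. EDNRA was thus the lower and EDNRB and GFRA2 the higher at day 15 in these cells as well. Their median depths were 3679 UMIs at day 10 and 21367 UMIs at day 15.

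Of the 9 day 15 cells with a RET UMI, 6 also held GFRA2 (66.7%, 29.9 to 92.5) and 4 held GFRA1 (44.4%, 13.7 to 78.8), against 31.3% and 29.6% of all day 15 cells. With 9 cells the intervals are too wide to set RET cells apart for either co-receptor.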
